A study of Rattus norvegicus with 21 samples.

Results

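The 5 actin genes examined here were followed in cultured rat heart muscle cells through changes of the transcription factor KLF2 and a hypertrophic stimulus. They are Acta1 (ENSRNOG00000017786), Actc1 (ENSRNOG00000008536), Acta2 (ENSRNOG00000058039), Actb (ENSRNOG00000034254) and Actg1 (ENSRNOG00000036701). They were chosen by Ensembl ID, and all 5 were found among the 30560 IDs of each deposited count table. The tables carry no gene symbols, so the link between ID and symbol is the one stated in the choice of members and was not checked against a reference. The cells were neonatal rat ventricular myocytes (NRVMs), a primary culture of ventricular muscle cells from newborn rats, profiled in 20 RNA sequencing libraries that fell into 8 groups. In the knockdown table, cells received a control small interfering RNA (siNeg) or one against Klf2 (siKlf2), 12 h before any phenylephrine (PE), an α1-adrenergic agonist. The groups with PE then had it for 36 h, and every group of this table has 2 libraries. In the PE groups of the table for overexpression, PE was given 12 h before the virus. Cells of that table were infected for 24 h with an adenovirus carrying green fluorescent protein (AdGFP) or Klf2 (AdKlf2) (3 libraries per group). The PE dose is given as 100 µM, in a field that reads the same for every RNA library. The presence of PE was therefore taken from the sample titles, which go together with a field named batch that holds 0 or 36 h. How long cells without PE were kept is not given in the labels. A difference of batch or of culture time thus cannot be told apart from PE. Whether the libraries of a group were separate cultures is not stated in the labels, so the p-values here measure only how far these samples spread, which may be technical.

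Actins polymerise into filaments, and mammals make several isoforms from separate genes whose protein products are nearly identical. Cardiac α-actin (Actc1) is the main actin of the heart's thin filament, on which myosin pulls. Skeletal α-actin (Acta1) is abundant in the fetal and newborn rodent heart and is a classic marker of the fetal gene programme that returns in hypertrophy. Smooth muscle α-actin (Acta2) appears in the early heart, in vascular smooth muscle and in activated fibroblasts. β-actin (Actb) and γ-actin (Actg1) form the cytoplasmic cytoskeleton of nearly all cells. Muscle actin genes are textbook targets of serum response factor (SRF), which binds a DNA element called the CArG box.

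The stretches of 250 bases before the annotated start of 4 of these genes, from RefSeq on build GRCr8, are shown because the muscle members moved together in some groups and apart in others. Each is printed 5′ to 3′ on the gene's own strand. Capitals mark CArG boxes, searched by name as CC, a core of 6 A or T bases and GG on both strands, with up to 1 mismatch allowed in the core. All 4 genes lie on the minus strand, at chr19:68784195-68784444 for Acta1, chr3:121271828-121272077 for Actc1, chr1:241172504-241172753 for Acta2 and chr10:106120952-106121201 for Actg1.
Acta1: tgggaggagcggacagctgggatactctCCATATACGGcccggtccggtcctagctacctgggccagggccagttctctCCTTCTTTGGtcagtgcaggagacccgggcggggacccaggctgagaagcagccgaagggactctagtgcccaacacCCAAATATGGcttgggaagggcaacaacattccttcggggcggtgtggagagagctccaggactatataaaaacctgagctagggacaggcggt
Actc1: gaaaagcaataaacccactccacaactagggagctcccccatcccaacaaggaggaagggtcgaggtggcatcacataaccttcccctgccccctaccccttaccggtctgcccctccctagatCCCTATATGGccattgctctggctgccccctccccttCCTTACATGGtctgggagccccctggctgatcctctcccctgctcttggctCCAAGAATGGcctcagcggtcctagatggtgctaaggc
Acta2: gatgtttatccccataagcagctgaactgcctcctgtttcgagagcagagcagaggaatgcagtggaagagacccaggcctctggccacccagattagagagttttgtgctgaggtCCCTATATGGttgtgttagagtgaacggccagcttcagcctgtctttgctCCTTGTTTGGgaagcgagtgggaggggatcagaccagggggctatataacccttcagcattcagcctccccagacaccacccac
Actg1: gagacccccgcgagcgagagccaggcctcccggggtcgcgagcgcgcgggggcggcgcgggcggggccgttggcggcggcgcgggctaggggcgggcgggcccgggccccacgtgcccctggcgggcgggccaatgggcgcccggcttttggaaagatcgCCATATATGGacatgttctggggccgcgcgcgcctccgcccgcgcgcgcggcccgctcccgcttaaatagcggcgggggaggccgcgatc

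Acta1 and Actc1 each held 3 such elements in this window, Acta2 held 2 and Actg1 held 1. A CArG box without mismatch was present in the Acta1 window, 94 to 85 bases before the start, and in the Actg1 window, 90 to 81 bases before it. Of all 33469 promoter windows of the same length, 1.5% held a CArG box without mismatch, 8.08% held one with at most 1 mismatch, and 0.693% held at least 2 of either kind. The short motif CACCC, the core of the boxes that Krüppel-like factors bind, was searched on both strands. It occurred 1 time before Acta1, where it overlapped the CArG box, 2 times before Acta2, and not in the Actc1 and Actg1 windows, against 49.2% of all windows with at least 1 match. A match is only a match of letters, and no binding was measured at these windows here.

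Libraries of the knockdown table held 181101876 to 224082309 counts, and those with virus held 32693762 to 76138723. Apart from the rest stood the 3 libraries of AdGFP without PE. Their replicate correlations in log CPM across genes were 0.959 to 0.965, against 0.982 to 0.991 in the other virus groups and 0.995 to 0.996 in the knockdown table. Only 539 to 776 genes lay at 1 to 5 counts in each of them, while the remaining virus libraries had 1728 to 2022 such genes. Every comparison with AdGFP without PE rests on them. CPM are counts over the TMM-scaled library size at a common total, and levels are compared only within a gene, since no transcript lengths were used. Scaling by library totals instead shifted the median log2 fold change of all genes by -0.27 to -0.04, depending on the comparison. Klf2 levels were not analysed here, so neither manipulation was checked on its target. The labelled cell type was not checked against markers, because other genes could not be matched by name. In bulk RNA, fewer cells of a type and less RNA per cell cannot be told apart.

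**Figure D1:**
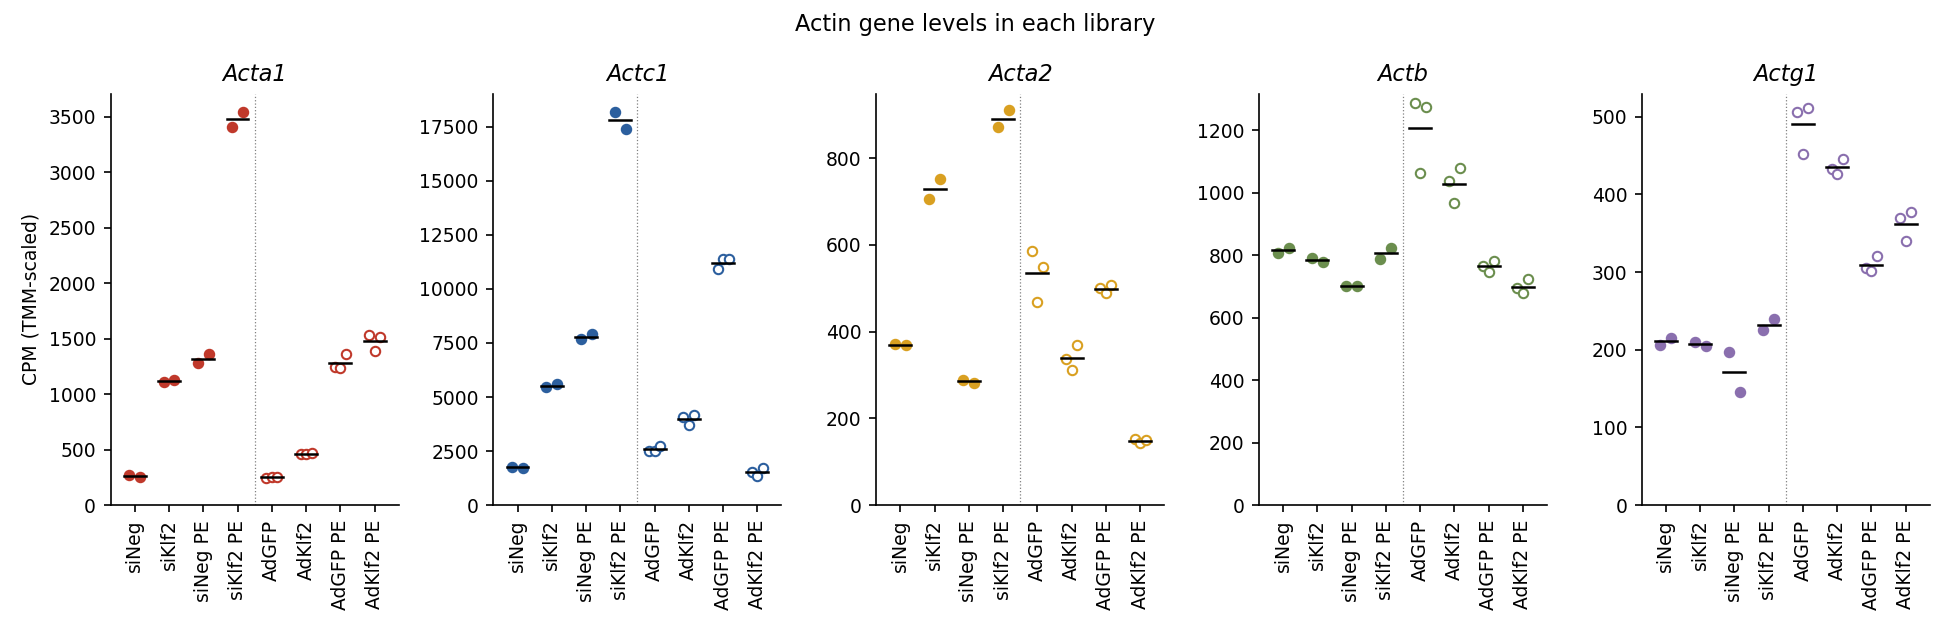
Level of each actin gene in CPM (linear axis from 0, a separate scale for each gene) in the 8 groups. Points are single libraries, filled for the knockdown table and open for the overexpression table, and black lines are group means. Within the knockdown table, Acta1 and Actc1 were highest in siKlf2 with PE. Within the overexpression table, Actc1 was lowest in AdKlf2 with PE, the group where Acta1 was highest.

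PE raised both striated muscle α-actins in control cells of both tables. Acta1 stood at 270 and 252 CPM in the siNeg libraries and at 1282 and 1359 CPM in those with PE. It stood at 244, 256 and 253 CPM in AdGFP, and at 1241, 1233 and 1360 CPM in AdGFP with PE. The groups with and without PE did not overlap in either table. How many of all genes tested had groups without overlap was not computed, here or in the comparisons below. The log2 fold change of Acta1 was 2.34 in siNeg (SE 0.0445, edgeR quasi-likelihood adjusted p = 2.38e-11) and 2.35 in AdGFP (SE 0.0519, edgeR adjusted p = 5.56e-16). These are 5.06-fold and 5.09-fold rises, larger in size than those of 99.5% and 96.8% of the genes tested. Actc1 went from 1770 and 1735 CPM in siNeg to 7670.2 and 7922 CPM with PE. In AdGFP it went from 2517, 2512 and 2734 CPM to 10897, 11366 and 11365 CPM. Its log2 fold changes were 2.15 (SE 0.039, edgeR adjusted p = 1.58e-11) and 2.12 (SE 0.0703, edgeR adjusted p = 1.2e-13), again with no overlap between groups.

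The other 3 actins did not follow them. Acta2 fell in siNeg with PE, from 371 and 369 to 290 and 281 CPM (log2 fold change -0.38, SE 0.0384, edgeR adjusted p = 8.89e-06). In AdGFP its values with PE, 489 to 507 CPM, lay inside the range without PE, 469 to 586 CPM (log2 fold change -0.10, SE 0.071, edgeR adjusted p = 0.297). That change was called without AdGFP replicate 2 (log2 fold change -0.19, edgeR adjusted p = 0.0184) and with library totals in place of TMM factors (log2 fold change -0.24, edgeR adjusted p = 0.0138). Actb fell in both control arms, by 0.22 on the log2 scale in siNeg (SE 0.0327, edgeR adjusted p = 0.00019) and by 0.66 in AdGFP (SE 0.0627, edgeR adjusted p = 1.56e-07). Actg1 fell by 0.67 on the log2 scale in AdGFP (SE 0.0553, edgeR adjusted p = 2.78e-08). In siNeg the value for Actg1 was -0.30 on the log2 scale (SE 0.101, edgeR adjusted p = 0.0294), and 1 of the siNeg libraries with PE was low, at 146 CPM beside 197 CPM. Without that library the change was -0.09 (edgeR adjusted p = 0.0931), and without the other one it was -0.53 (edgeR adjusted p = 8.12e-07). The call was also lost without siNeg replicate 1 or 2 (edgeR adjusted p = 0.0568 and 0.128), with only the compared groups (edgeR adjusted p = 0.0808) and with DESeq2 (adjusted p = 0.125). In siNeg, then, 2 of the 5 genes were called higher with PE and 3 lower, where 24.8% of all genes tested were called higher and 24.3% lower. In AdGFP 2 were called higher and 2 lower, against 18.3% and 16.3% of all genes. The median log2 fold change of the 5 genes was -0.22 in siNeg and -0.10 in AdGFP, against -0.02 over all genes in each.

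All 3 muscle actins were higher in siKlf2 than in siNeg cells. Without PE, Acta1 reached 1109.9 and 1126 CPM in siKlf2, a 4.28-fold rise over siNeg (log2 fold change 2.10, SE 0.0441, edgeR adjusted p = 5.21e-11). Actc1 reached 5457 and 5592 CPM, a 3.15-fold rise (log2 fold change 1.66, SE 0.0383, edgeR adjusted p = 1.17e-10). Acta2, which PE had lowered in siNeg, reached 706 and 752 CPM in siKlf2, a 1.97-fold rise (log2 fold change 0.98, SE 0.0387, edgeR adjusted p = 4.72e-09). None of these groups overlapped siNeg. The cytoplasmic actins had log2 fold changes of -0.05 for Actb (SE 0.0327, edgeR adjusted p = 0.187) and -0.02 for Actg1 (SE 0.1, edgeR adjusted p = 0.872). The Actg1 libraries overlapped between siKlf2 and siNeg, while those of Actb were 779 and 790.1 CPM in siKlf2 and 808 and 822 CPM in siNeg. With library totals in place of TMM factors, Actb was called lower (log2 fold change -0.25, edgeR adjusted p = 8.62e-05). The count of members called was 3 of 5, all higher, where 27.2% of all genes tested were called higher and 26.8% lower.

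With PE present, siKlf2 cells had the highest level of each muscle actin in their table. Acta1 stood at 3408 and 3542 CPM, 2.63-fold over siNeg with PE (log2 fold change 1.40, SE 0.0431, edgeR adjusted p = 6.16e-10). Actc1 stood at 18188 and 17389.5 CPM, a 2.28-fold rise (log2 fold change 1.19, SE 0.0379, edgeR adjusted p = 7.76e-10). Acta2 rose most of the 5 in this comparison, to 872 and 911 CPM from 290 and 281 CPM, 3.13-fold (log2 fold change 1.64, SE 0.0393, edgeR adjusted p = 1.54e-10). Actb and Actg1 had small positive changes, with log2 fold changes of 0.20 (SE 0.0327, edgeR adjusted p = 0.000315) and 0.44 (SE 0.101, edgeR adjusted p = 0.00323). The Actg1 value rests on the unequal siNeg libraries with PE, and was 0.68 without replicate 1 and 0.24 without replicate 2 of that group. All 5 members were called higher in this comparison, where 26.1% of all genes were called higher and 28.2% lower. With library totals in place of TMM factors, which shifted the median of all genes by -0.27 here, Actb turned to -0.07 (edgeR adjusted p = 0.153) and Actg1 to 0.17 (edgeR adjusted p = 0.163), so the calls of both cytoplasmic actins depend on the scaling, while those of the muscle actins do not.

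The order of the 4 knockdown groups was the same for Acta1 and Actc1. It ran from siNeg over siKlf2 and siNeg with PE to siKlf2 with PE, and no neighbours in that order overlapped. Acta2 had another order, from siNeg with PE over siNeg and siKlf2 to siKlf2 with PE, also without overlap of neighbours. For Actb the siKlf2 groups with and without PE overlapped, as did siKlf2 with PE and siNeg. For Actg1 siNeg with PE was lowest and siKlf2 with PE highest, and siKlf2 and siNeg between them overlapped. The lowest mean of Actb, 701 CPM, and the highest, 815 CPM, both came from siNeg cells, with and without PE.

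The PE response itself differed between siKlf2 and siNeg cells. In siKlf2 cells PE raised Acta1 3.11-fold (log2 fold change 1.64, SE 0.0434, edgeR adjusted p = 2.41e-10) and Actc1 3.22-fold (log2 fold change 1.69, SE 0.0384, edgeR adjusted p = 1.24e-10), from levels that were already higher than in siNeg. The interaction, the PE response in siKlf2 minus that in siNeg, was -0.70 on the log2 scale for Acta1 (SE 0.06, edgeR adjusted p = 3.16e-05) and -0.47 for Actc1 (SE 0.0529, edgeR adjusted p = 0.000198). Acta2 was lowered by PE in siNeg and raised by it in siKlf2 (log2 fold change 0.29, SE 0.0383, edgeR adjusted p = 7.01e-05, and 0.12 with library totals), an interaction of 0.67 (SE 0.0543, edgeR adjusted p = 2.4e-05). The values for PE in siKlf2 were 0.04 for Actb (SE 0.0327, edgeR adjusted p = 0.376) and 0.16 for Actg1 (SE 0.101, edgeR adjusted p = 0.209). With library totals the first turned to -0.13 (edgeR adjusted p = 0.00978) and the second to -0.0074 (edgeR adjusted p = 0.96), and the second passed the threshold in 4 other alternatives, among them no filter (edgeR adjusted p = 0.0189). Actb had an interaction of 0.25 (SE 0.0462, edgeR adjusted p = 0.00391). The value for Actg1 was 0.46 (SE 0.142, edgeR adjusted p = 0.0538), and it passed the threshold without either siNeg library with PE (0.70 without replicate 1, 0.26 without replicate 2). Members called for PE in siKlf2 were 3 of 5, all higher, against 24.4% of all genes called higher and 23.7% lower. For the interaction 2 were called higher and 2 lower, against 7.08% and 7.35% of all genes.

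**Figure D2:**
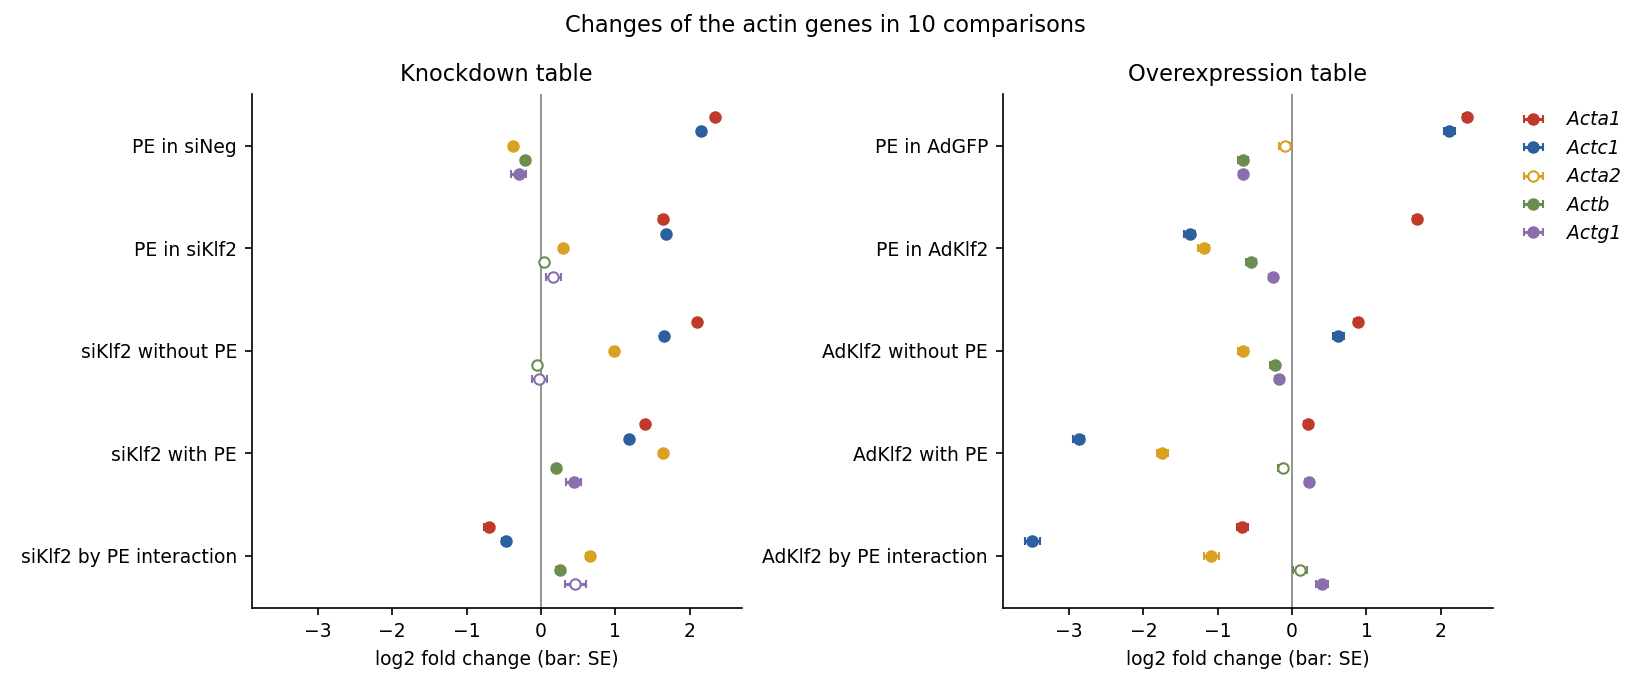
Log2 fold change of each actin gene (horizontal axis, bars are SE) in 5 comparisons of each table, from edgeR's quasi-likelihood fit. Filled points passed an adjusted p of 0.05 and open points did not. The Actc1 value for AdKlf2 with PE, -2.87, and its interaction, -3.49, lie far to the left of the other actins.

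AdKlf2 cells differed from AdGFP cells in Actc1 in opposite directions without and with PE. Without PE, Actc1 rose from 2517, 2512 and 2734 CPM in AdGFP to 4070.2, 3721 and 4171 CPM in AdKlf2, 1.54-fold (log2 fold change 0.62, SE 0.0678, edgeR adjusted p = 6.01e-07). With PE, it lay at 1526, 1344 and 1731 CPM in AdKlf2, against 10897, 11366 and 11365 CPM in AdGFP. That is 7.31-fold lower (log2 fold change -2.87, SE 0.0724, edgeR adjusted p = 9.12e-17), a change larger in size than that of 90.2% of genes tested. The AdKlf2 libraries with PE were all below every AdGFP library without PE, so the level was under that of unstimulated control cells. PE lowered Actc1 2.6-fold within AdKlf2 cells (log2 fold change -1.38, SE 0.0688, edgeR adjusted p = 3.25e-12), where it had raised it 4.33-fold within AdGFP cells. The interaction was -3.49 (SE 0.0983, edgeR adjusted p = 4.74e-15), larger in size than that of 96% of genes tested.

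Acta1 did not share this fall. Without PE it rose from 244, 256 and 253 CPM to 459, 459 and 468 CPM in AdKlf2, 1.84-fold (log2 fold change 0.88, SE 0.05, edgeR adjusted p = 8.29e-11). With PE it stood at 1533, 1387 and 1516 CPM in AdKlf2 and at 1241, 1233 and 1360 CPM in AdGFP. The difference was small but called (log2 fold change 0.21, SE 0.0493, edgeR adjusted p = 0.00102, and 0.11 with library totals), and the lowest AdKlf2 library lay just above the highest AdGFP library. PE raised Acta1 3.2-fold within AdKlf2 (log2 fold change 1.68, SE 0.0507, edgeR adjusted p = 3.49e-15), a smaller response than in AdGFP (interaction -0.67, SE 0.07, edgeR adjusted p = 1.98e-07). The increase of Acta1 with AdKlf2 under PE was larger in size than that of only 17.2% of genes tested, which places it among the smaller changes of this comparison.

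Acta2 was lower in AdKlf2 than in AdGFP, both without and with PE. Without PE it fell from 586, 469 and 550.3 CPM to 336, 311 and 370 CPM, 1.58-fold lower (log2 fold change -0.66, SE 0.0714, edgeR adjusted p = 5.72e-07). With PE it fell from 500.4, 489 and 507 CPM to 153, 142 and 150.2 CPM, 3.36-fold lower (log2 fold change -1.75, SE 0.0735, edgeR adjusted p = 1.44e-13). Neither pair of groups overlapped, and the PE response was lower in AdKlf2 than in AdGFP by an interaction of -1.09 (SE 0.101, edgeR adjusted p = 4.18e-08). Acta2 was the only member called higher in both knockdown comparisons and lower in both overexpression comparisons.

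For the cytoplasmic actins, differences between AdKlf2 and AdGFP were small. Without PE, Actb differed by -0.23 on the log2 scale (SE 0.0624, edgeR adjusted p = 0.0065), with overlapping libraries of 966 to 1078 CPM in AdKlf2 and 1061 to 1287 CPM in AdGFP. For Actg1 the difference was -0.17 (SE 0.0549, edgeR adjusted p = 0.0196). Both calls were lost without AdGFP replicate 1 (edgeR adjusted p = 0.057 and 0.105) or AdKlf2 replicate 2 (edgeR adjusted p = 0.0667 and 0.106). That of Actg1 was also lost without AdGFP replicate 3, AdKlf2 replicate 1 or replicate 1 of AdKlf2 with PE (edgeR adjusted p = 0.104, 0.0938 and 0.0518). With PE, Actg1 was higher in AdKlf2, at 340 to 377 CPM against 301 to 321 CPM (log2 fold change 0.23, SE 0.0552, edgeR adjusted p = 0.00118, and 0.13 with library totals). Actb lay at 680.1 to 724 CPM against 746 to 782 CPM. Its difference of -0.13 on the log2 scale (SE 0.0626, edgeR adjusted p = 0.0832) passed the threshold under several alternatives, among them the fit of only those groups (edgeR adjusted p = 0.00511). PE lowered both genes in AdKlf2, Actb by 0.55 and Actg1 by 0.26 on the log2 scale (edgeR adjusted p = 3.29e-07 and 0.000425), the latter by 0.46 with library totals. For the interaction Actg1 was called (0.40, SE 0.0778, edgeR adjusted p = 0.000255) and Actb was not (0.11, SE 0.0884, edgeR adjusted p = 0.351), though Actb passed without AdGFP replicate 2 (0.18, edgeR adjusted p = 0.0314).

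The order of levels in the virus groups differed from gene to gene. Acta1 ran from AdGFP over AdKlf2 and AdGFP with PE to AdKlf2 with PE, whereas Actc1 ran from AdKlf2 with PE over AdGFP and AdKlf2 to AdGFP with PE, in both cases without overlap of neighbours. Acta2 was lowest in AdKlf2 with PE and next in AdKlf2, and both AdGFP groups overlapped above them. Actb ran from AdKlf2 with PE over AdGFP with PE to AdKlf2 and AdGFP, which overlapped. Actg1 ran from AdGFP with PE over AdKlf2 with PE and AdKlf2 to AdGFP without overlap of neighbours.

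Without PE, 2 members were called higher and 3 lower with AdKlf2, where 20% of all genes were called higher and 15.1% lower. With PE, 2 members were called higher and 2 lower, against 33.6% and 32.1% of all genes. For PE within AdKlf2, 1 member was called higher and 4 lower, against 31.6% and 29.6% of all genes. For the interaction 1 was called higher and 3 lower, against 25.1% and 24% of all genes.

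Each gene's part in the actin counts was then computed in every library, as its counts over the summed counts of the 5 genes. Such shares need no scaling between libraries, but they are not corrected for transcript length and so are compared between groups rather than between genes. The shares of a library add up to the whole, so a share can shift though the level of its gene does not. Reads from these near-identical coding sequences can match more than 1 gene, and how the authors counted such reads is not given in the sources used here, so the split between isoforms carries an uncertainty that the replicate error does not show. The 5 genes together held 0.383% ± 0.00126 of all counts in siNeg and 2.02% ± 0.0368 in siKlf2 with PE (SD, n = 2 each). In the other table they held 0.544% ± 0.0329 in AdGFP, 1.37% ± 0.0245 in AdGFP with PE and 0.385% ± 0.0225 in AdKlf2 with PE (SD, n = 3 each).

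**Figure D3:**
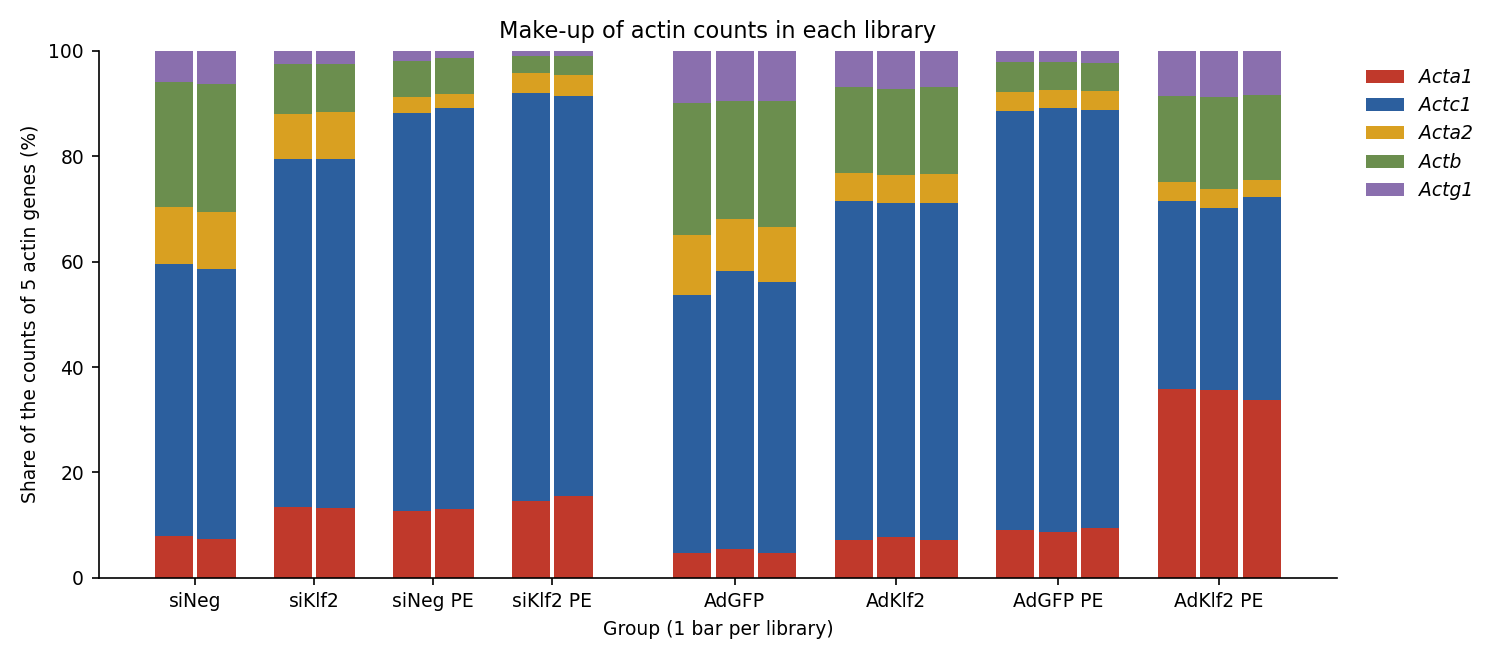
Share of the summed counts of the 5 actin genes (percent, vertical axis from 0 to 100) in each of the 20 libraries, 1 bar per library, by group. Red is Acta1, blue Actc1, yellow Acta2, green Actb and purple Actg1. Acta1 fills 33.7% to 35.9% of the bar in AdKlf2 with PE and 4.75% to 15.5% in every other library. A share depends on the counts of the other genes as well.

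In control cells without PE, 3 of the shares lay close together in both tables. Actc1 held 51.4% ± 0.385 of actin counts in siNeg (SD, n = 2) and 51.1% ± 1.98 in AdGFP (SD, n = 3). Actb held 23.9% ± 0.438 and 23.8% ± 1.35, and Acta2 10.9% ± 0.016 and 10.5% ± 0.782 in the same groups. The Acta1 share was lower in AdGFP than in siNeg, and the Actg1 share was higher, at 9.66% ± 0.17 (SD, n = 3) beside 6.18% ± 0.242 (SD, n = 2), which was not tested across tables. With PE, Actc1 grew to 75.9% ± 0.332 in siNeg (SD, n = 2) and 79.7% ± 0.599 in AdGFP (SD, n = 3), while Actb shrank to 6.83% ± 0.126 and 5.43% ± 0.149. The Acta1 share grew from 7.66% ± 0.31 to 12.8% ± 0.294 in siNeg (SD, n = 2) and from 4.96% ± 0.363 to 9.09% ± 0.385 in AdGFP (SD, n = 3).

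In siKlf2 without PE the shares of Actc1 and Actb lay between those of siNeg without and with PE, at 66.1% ± 0.133 and 9.38% ± 0.234 (SD, n = 2). The Acta1 share in siKlf2 was 13.4% ± 0.0701 (SD, n = 2), above both. The mean level of Actb was 785 CPM in siKlf2 and 815 CPM in siNeg, both without PE. In siKlf2 with PE the Actc1 share was 76.7% ± 1.09 (SD, n = 2), a range that overlapped siNeg with PE, and the Acta1 share was 15% ± 0.671. AdKlf2 without PE had 63.8% ± 0.503 for Actc1, 7.4% ± 0.347 for Acta1 and 5.42% ± 0.21 for Acta2 (SD, n = 3). AdKlf2 with PE had a mix found in no other group. Actc1 held 36.2% ± 2.03 and Acta1 held 35.1% ± 1.18 of the counts, with Actb at 16.6% ± 0.755, Actg1 at 8.59% ± 0.19 and Acta2 at 3.52% ± 0.165 (SD, n = 3). The Acta2 share there overlapped that of AdGFP with PE, 3.55% ± 0.096 (SD, n = 3), although its level in CPM was lower. The mean level of Acta1 was 1478 CPM in AdKlf2 with PE and 1278 CPM in AdGFP with PE. That of Actc1 was 1534 CPM and 11210 CPM in the same groups.

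**Figure D4:**
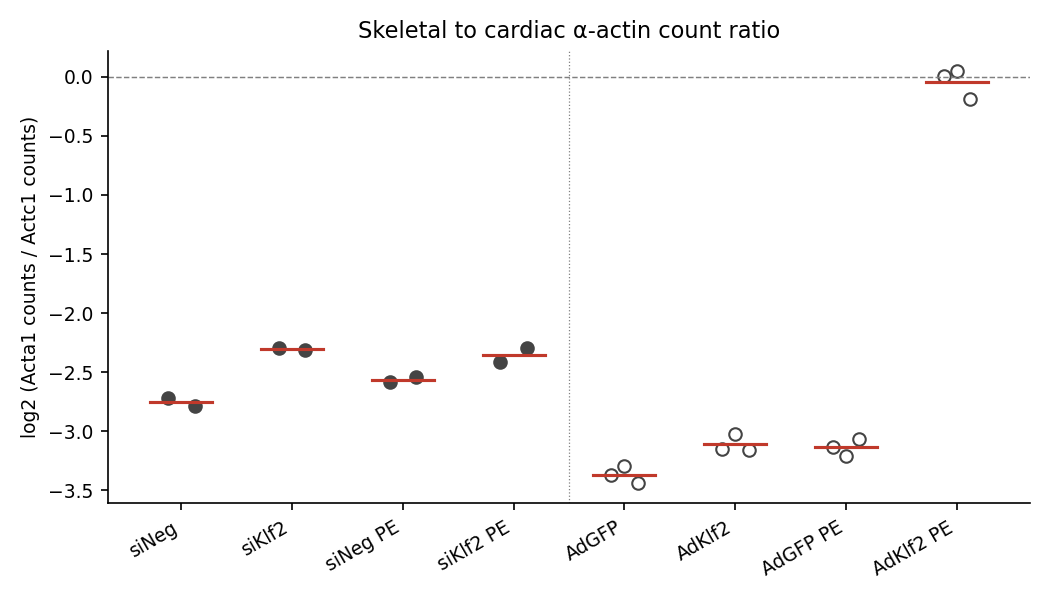
Log2 of the ratio of Acta1 counts to Actc1 counts in each library (points, filled for the knockdown table and open for the overexpression table), with group means as red lines. The dashed line marks equal counts. The AdKlf2 libraries with PE lie from -0.19 to 0.04, and all other libraries lie at -2.30 or lower.

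The ratio of Acta1 to Actc1 counts set AdKlf2 with PE furthest apart. There were 0.876, 1.00 and 1.03 Acta1 counts per Actc1 count in those 3 libraries, a mean of 0.971 ± 0.0832 (SD, n = 3). AdGFP, AdKlf2 and AdGFP with PE had 0.0971 ± 0.00463, 0.116 ± 0.00627 and 0.114 ± 0.00562 (SD, n = 3 each). On the log2 scale AdKlf2 with PE exceeded AdGFP with PE by 3.09 and AdKlf2 without PE by 3.06. In the knockdown table the ratio stayed between 0.145 and 0.204 in every library. It was higher in siKlf2 than in siNeg by 0.44 on the log2 scale, and PE within siKlf2 gave a difference of -0.05 with overlapping groups. For shares and ratios together, 48 differences were compared by exact permutation tests, two-sided. The smallest p such a test allows is 0.333 with 2 libraries against 2 and 0.1 with 3 against 3, so none could pass the threshold, and the smallest Benjamini-Hochberg adjusted p was 0.218. These values are therefore a description, set beside the fits across all genes given above.

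The members were also compared over all 20 libraries, in log2 CPM centred on each gene's mean within its table. Acta1 and Actc1 had a Pearson correlation of 0.996 over the 8 knockdown libraries and 0.16 over the 12 virus libraries. Acta1 and Actb had one of -0.20 in the first and -0.97 in the second, and Actb and Actg1 had 0.78 and 0.89. These are descriptions without a test, and the libraries of a group share their treatment. Among 8769 other genes tested in both tables and averaging 10 CPM or more in each, the likeness of Actc1 to Acta1 (0.57 over 20 libraries) ranked 1667. The highest correlations with Acta1 were those of ENSRNOG00000017163 and ENSRNOG00000054140, both 0.98, and the lowest those of ENSRNOG00000050539 and ENSRNOG00000020804, both -0.96. The mean of ENSRNOG00000017163 was 167 CPM in siNeg, 335 in siKlf2, 346 in siNeg with PE and 773 in siKlf2 with PE. In the virus groups it was 161 CPM in AdGFP, 188 in AdKlf2, 419 in AdGFP with PE and 442 in AdKlf2 with PE. The order of groups was that of Acta1 in each table, which the choice by correlation over these same libraries makes likely.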

How the data were processed

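RNA sequencing of NRVMs gave 20 libraries in 2 count tables. Per the submitters' processing notes, the authors used Trim Galore, STAR and featureCounts on mRatBN7.2, and deposited raw counts per Ensembl gene ID. Versions, annotation release, strand setting and handling of reads with several matches are not given in the sources used here. Even numbers were 59.8% to 66.6% of the counts from 1 to 20 in knockdown libraries and 72.1% to 82.2% in virus libraries, so a fragment may often have counted for each of its mates. The upper end came from AdGFP without PE, at 80.5% to 82.2%, beside 72.1% to 77.9% in the remaining virus libraries. What set that group apart was not tested, and it enters every comparison with AdGFP without PE.

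Each table was fitted whole with edgeR 4.0.16 (R 4.3.3). The filter was filterByExpr (minimum count 10, minimum total 15), which left 18173 and 16153 genes and all 5 members in both. TMM factors, a coefficient per group, the quasi-likelihood test and Benjamini-Hochberg adjustment over all genes of a comparison were used, with calls at an adjusted p under 0.05. The SE is the log2 fold change over the root of its F value. When tested on simulated data in which 200 genes were altered, the fit for PE in siNeg (18173 genes) recovered 68% of changes of 1.5-fold, 80% of 2-fold, 92% of 4-fold and 91.8% of 8-fold. The fit for PE in AdGFP (16153 genes) recovered 40%, 83%, 73.5% and 96% of the same sizes. The simulation altered far fewer genes than were called in the data (24.8% higher and 24.3% lower for PE in siNeg). Scaling under such wide change was not simulated. No replicate pair agreed within sampling noise, the lowest mean chi-square per gene being 5.53. Same-numbered libraries of different groups had correlations of their deviations of -0.0432 to 0.0403 (knockdown) and -0.0203 to 0.0446 (virus), so the numbers were not taken as pairs.

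Shares, ratios and exact permutation tests used Python 3.11.15 with scipy 1.17.1, and figures matplotlib 3.10.9. Alternatives were RLE factors, library totals, no filter, DESeq2 1.42.0, a replicate block, only the compared groups, halved counts, and each library left out. The named genes are the 5 members and, by a rule set with the design, the 2 IDs most and the 2 least correlated with Acta1 (log2 CPM with a prior count of 2). The members and lists were chosen with earlier results of these data known. Lists of pathway and marker genes by symbol were not used, since 0 Ensembl IDs of the reference table could be matched. The peak list of the CUT&Tag library was not used, because the gene positions at hand are on GRCr8. Lengths of transcripts were not used.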

Additional observations from a re-analysis of the deposited data

Results flagged for a closer look

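The response to PE differed between KLF2-altered cells and their controls by the test of the difference itself, edgeR's quasi-likelihood test of the interaction with adjustment over all genes. In the knockdown table it was called for 4 of 5 members, where 7.08% of all genes were called higher and 7.35% lower. These shares cover genes of any level, and shares among genes as abundant as the members were not computed. The values were, as the PE response in siKlf2 minus that in siNeg on the log2 scale, -0.70 for Acta1, -0.47 for Actc1, 0.67 for Acta2 and 0.25 for Actb. In the overexpression table it was also called for 4 of 5 members, but there 25.1% of all genes were called higher and 24% lower. The values were, as the response in AdKlf2 minus that in AdGFP, -0.67 for Acta1, -3.49 for Actc1, -1.09 for Acta2 and 0.40 for Actg1. The Actc1 value of -3.49 goes with opposite directions of response, since all AdGFP libraries with PE lay above those without it and all AdKlf2 libraries with PE lay below those without it. The Acta2 value of 0.67 also goes with opposite directions, a fall with PE in siNeg and a rise in siKlf2. Interactions in the overexpression table include the AdGFP libraries without PE, which stood apart in replicate correlation.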

How the results depend on the processing

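Over 840 values of the 50 member fold changes under alternatives, 804 kept their direction and their side of the threshold, 13 calls were lost, 19 were gained and 4 values changed sign. No Acta1 or Actc1 value was among those that changed. With library totals in place of TMM factors, the members called in siKlf2 with PE went from 5 to 3, and the log2 fold change turned to -0.065 for Actb there, and to -0.13 for Actb and -0.0074 for Actg1 for PE in siKlf2. Without siNeg replicate 2 that of Actg1 in siKlf2 without PE turned to 0.014, and without the other libraries it was as low as -0.053. Leaving out each library gave 3 to 5 members called in AdKlf2 without PE, and differences in the log2 ratio of Acta1 to Actc1 for PE in siKlf2 of -0.11 to 0.0096. Over 264 values of shares and ratios 6 changed sign. These were that ratio and, with only the 3 muscle actins as the whole, the Actc1 share in siKlf2 with PE (-2.64 points) and the Acta2 share in AdKlf2 with PE (0.87 points). As shares of all 5 actins, with each library left out, the Acta2 difference in AdKlf2 with PE was -0.0927 to 0.0666 points and the Actb difference for PE in AdKlf2 was -0.264 to 0.419 points. The cause of these changes was not tested. With a replicate block the members called went from 4 to 5 for the interaction with siKlf2 and from 4 to 5 for AdKlf2 with PE, and no other count moved. Only 4 of 8 and 6 of 12 libraries correlated best with a library of their own number, so the numbers are not shown to pair samples. Shares per transcript length and KLF2 peaks at actin genes were not run. Where a group was left with 1 library, it was taken to vary like the other groups.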

Other observations

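Within groups, the deviations of single libraries from their group mean in log2 CPM were most alike for Acta2 and Actb, with a Pearson correlation of 0.896 over the 20 libraries, against 0.509 for Acta1 and Actc1 and 0.487 for Actb and Actg1. Deviations within a group cancel out, so the 20 libraries do not give 20 independent values. Acta2 and Actb spread most in AdGFP without PE (SD 11.2% and 10.5% of the mean), so those libraries weigh most in the 0.896. Their values show the likeness. Replicate 2 was the lowest of its group in Acta2 (469 CPM beside 586 and 550.3), in Actb (1061 beside 1287 and 1272) and in Actg1 (452 beside 506 and 512). It was also the lowest in Actc1, by little (2512 beside 2517 and 2734), but not in Acta1 (256 beside 244 and 253). This is a description of replicate spread, with no test.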
